A study of Caenorhabditis elegans with 6 samples.

Results

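The PUF genes puf-3, puf-5, puf-6, puf-7, puf-8, puf-9 and puf-11 of Caenorhabditis elegans were compared between whole animals at day 10 and whole L4 larvae. They were taken by symbol and WormBase identifier, as the PUF genes beyond the paralogues fbf-1 and fbf-2 that are known for repressing mRNAs in the germ line. All 7 were found among the 46940 features of the count table, which holds 12 PUF genes in all. Both groups were wild-type N2 animals, untreated and synchronized, grown at 20 °C on nematode growth medium. The study set day 10 animals, as aged worms, against L4 larvae, the last larval stage, as young ones. There were 3 libraries of each age, with 23257607 to 25616846 counts per library at day 10 and 19576201 to 23972794 in L4. The sources used here do not give the event from which day 10 is counted, the handling of progeny or the strandedness of the reads. No young adult was sampled, so changes on becoming adult and changes with adult age cannot be told apart. No source says whether the replicates were grown apart, and the p-values therefore cover the variation among these libraries alone, which could be technical.

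PUF proteins bind short UGU-containing elements in the 3′ untranslated regions of mRNAs through a domain of Pumilio repeats. They usually lower translation or stability of the bound mRNA, in many cases by recruiting the CCR4-NOT deadenylase, and some partners turn them toward activation. In the worm, FBF-1 and FBF-2 maintain germ line stem cells, while PUF-5 acts with the closely related PUF-6 and PUF-7 in growing oocytes. PUF-3 and PUF-11 are close relatives of each other that act in stem cells beside FBF and in oocytes. PUF-8 and PUF-9 are the worm proteins closest to Drosophila Pumilio, and PUF-9 is known from somatic tissues.

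The 5 genes of the oocyte subfamilies rose steeply at day 10, puf-8 rose less, and puf-9 stood at nearly the same level at both ages. The rises were 33.7-fold for puf-5, 20.0-fold for puf-7, 14.8-fold for puf-6, 11.7-fold for puf-3, 11.4-fold for puf-11 and 3.48-fold for puf-8, against 1.09-fold for puf-9. By edgeR (quasi-likelihood fit, Benjamini-Hochberg adjusted p under 0.05), 7 of 7 genes were higher at day 10 and 0 lower. Of the 15956 tested genes 85.4% were called, 40.5% as higher and 45% as lower. With upper-quartile scaling 6 of the 7 were higher and 1, puf-9, was lower, beside 5301 higher and 8408 lower of the 15956 tested genes. The median log2 fold change of the 7 was 3.55, beside −0.16 over all tested genes. A called rise of at least 3 on the log2 scale was seen for 7.2% of tested genes, and puf-3, puf-5, puf-6, puf-7 and puf-11 lay above that line. The day 10 libraries all lay above the L4 libraries for each of the 7, as they did for 41.3% of tested genes.

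**Figure D1:**
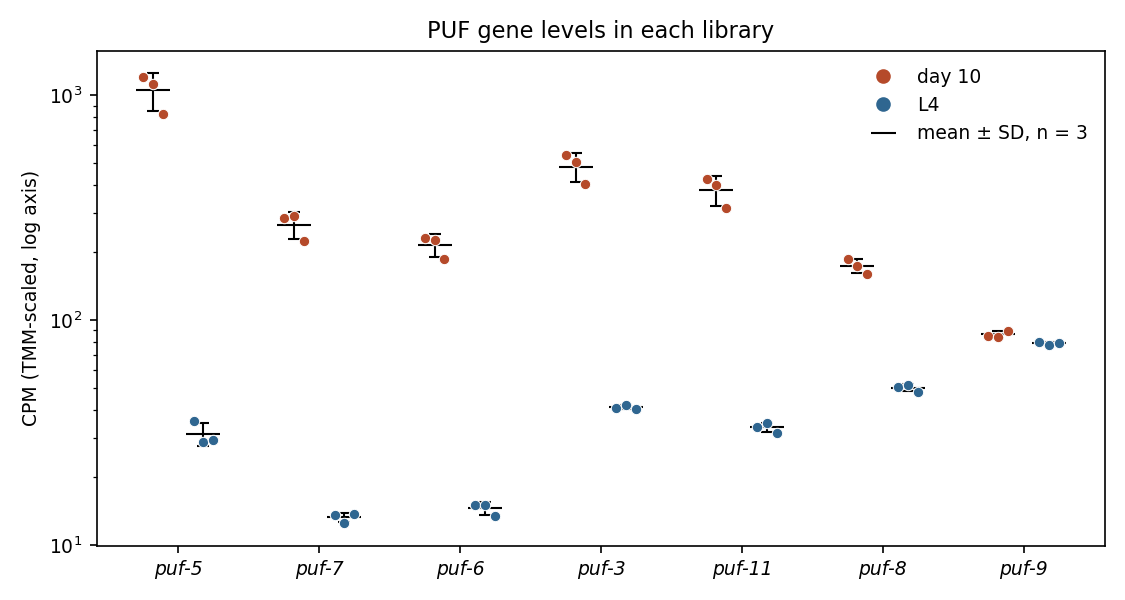
CPM of the 7 PUF genes in each of 6 libraries on a log axis, with day 10 libraries left of L4 libraries for each gene. Points are libraries and bars give mean ± SD (n = 3). The gap between the ages is widest for puf-5, at 1051 against 31.2 CPM, and narrowest for puf-9, at 86.4 against 78.9 CPM.

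The gene puf-5 (WBGene00004241, F54C9.8; WBcel235 chromosome II, 8575541 to 8577787, plus strand) encodes a repressor of late oogenesis that keeps the mRNA of the Notch receptor glp-1 from being translated in oocytes. It held 1204, 1126 and 823 CPM in day 10 replicates 1, 2 and 3, against 35.6, 28.7 and 29.4 CPM in the L4 replicates. CPM are read counts relative to the total of the library, here after TMM scaling, which sets the libraries to a common level. The groups were far apart, and day 10 replicate 3 was the lowest of its age. The log2 fold change was 5.07 ± 0.19 (SE; edgeR's adjusted p = 9.5e-08), and 659 of the tested genes had a larger one.

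The genes puf-6 (WBGene00004242, F18A11.1; II, 13039792 to 13043445, minus strand) and puf-7 (WBGene00004243, B0273.2; IV, 5486713 to 5490322, plus strand) encode closely related proteins that act redundantly with PUF-5. The level of puf-6 was 232, 228 and 186 CPM in the day 10 replicates and 15.1, 15.1 and 13.5 CPM in the L4 replicates. That of puf-7 was 283, 289 and 225 CPM at day 10 and 13.6, 12.5 and 13.7 CPM in L4. Both were low and even in L4, and in both the lowest day 10 value was in replicate 3. The log2 fold changes were 3.89 ± 0.11 for puf-6 (edgeR's adjusted p = 5.6e-09) and 4.32 ± 0.12 for puf-7 (edgeR's adjusted p = 5.8e-09).

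The genes puf-3 (WBGene00004239, Y45F10A.2; IV, 13510307 to 13512162, minus strand) and puf-11 (WBGene00022257, Y73B6BL.38; IV, 6421585 to 6423497, plus strand) lie on the same chromosome. Levels of puf-3 were 539.6, 503 and 401 CPM in the day 10 replicates and 40.6, 41.9 and 40.4 CPM in the L4 replicates. Levels of puf-11 were 423, 399 and 314 CPM at day 10 and 33.4, 34.9 and 31.6 CPM in L4. Library by library the genes took the same order at day 10, with replicate 1 highest and replicate 3 lowest. The log2 fold changes were 3.55 ± 0.13 for puf-3 (edgeR's adjusted p = 1.6e-08) and 3.51 ± 0.14 for puf-11 (edgeR's adjusted p = 2.7e-08).

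The gene puf-8 (WBGene00004244, C30G12.7; II, 7296110 to 7298247, minus strand) acts in germ line stem cells and in the progression of spermatocytes, and represses the caudal homologue pal-1 in germ cells. It held 186, 174 and 161 CPM in the day 10 replicates and 50.6, 51.3 and 47.9 CPM in the L4 replicates. The ages did not overlap, and the relative gap between day 10 replicate 3 and the others was smaller than for the oocyte subfamilies. Its log2 fold change was 1.8 ± 0.07 (edgeR's adjusted p = 3.3e-08).

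The gene puf-9 (WBGene00004245, W06B11.2; X, 5841592 to 5845987, plus strand) acts in the epidermis and nervous system, where it lowers the temporal factor hbl-1. It held 85.2, 84.4 and 89.5 CPM in the day 10 replicates and 80.2, 77.6 and 79.0 CPM in the L4 replicates. The ages did not overlap, but the gap between the nearest libraries was smaller than the range among day 10 libraries. Its log2 fold change was 0.13 ± 0.03 (edgeR's adjusted p = 0.045). With upper-quartile factors it was −0.32 (edgeR's adjusted p = 0.00064), and with the replicate number as a block the adjusted p was 0.075, so no direction is given for puf-9. The label of oocyte genes is thus not borne out for puf-9 by its levels, which lacked the rise of the oocyte subfamilies.

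The scaling shifted all 7 genes together. The median log2 fold change of all tested genes was 0.00 with DESeq2's size factors, against −0.62 when the upper quartile set the scale. Relative to that median, puf-5 stood at 5.24 under both, puf-8 at 1.96 under both, and puf-9 at 0.29 with the factors of DESeq2 and 0.30 with those of the upper quartile. In the authors' deposited table the adjusted p-values were 1.25e-36 for puf-5 and 0.029 for puf-9, and those of the other 5 lay between 8.08e-60 for puf-6 and 1.7e-34 for puf-11.

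**Figure D2:**
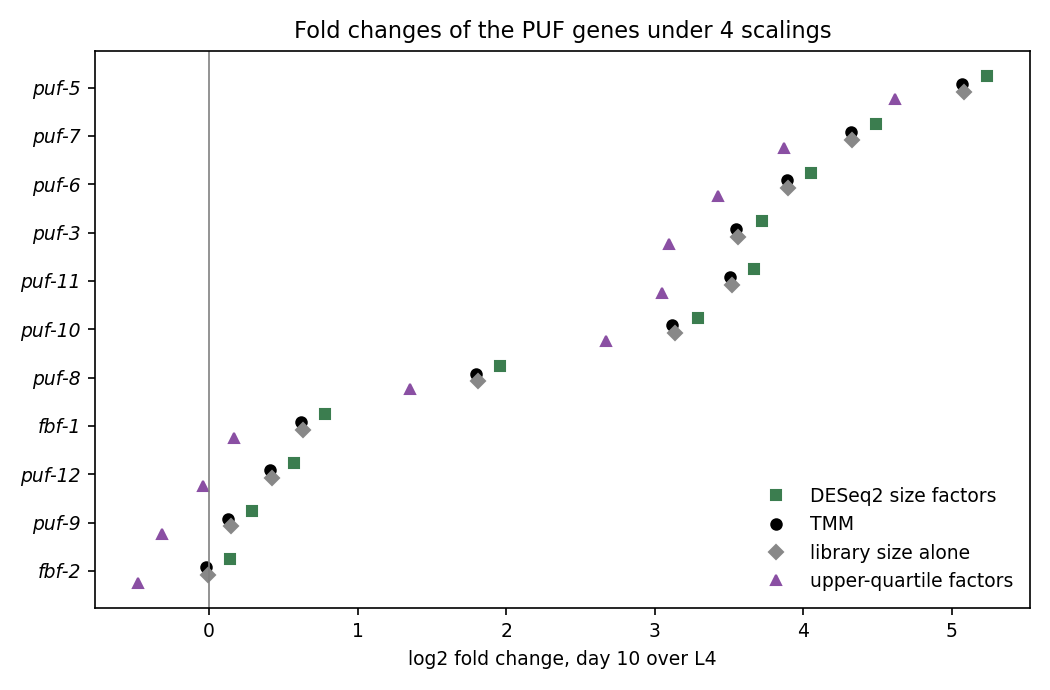
Log2 fold change, day 10 over L4, of the 7 PUF genes and of puf-10, fbf-1, puf-12 and fbf-2 under TMM, DESeq2's size factors, library size alone and upper-quartile factors. The genes at the top stay far to the right of 0 under each scaling, at 4.62 to 5.24 for puf-5, while puf-9 lies at −0.32 with upper-quartile factors and at 0.29 with DESeq2's size factors.

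Per unit of gene length, the 7 PUF genes changed their order between the ages. FPKM are the authors' counts divided by gene length and by library total, and allow levels to be set side by side between genes. At day 10, puf-5 led the 7 with 522 ± 82.7 FPKM (SD, n = 3), followed by puf-3 at 277 ± 32.0, puf-11 at 221 ± 26.2, puf-7 at 143 ± 14.3, puf-6 at 114 ± 9.37, puf-8 at 95.7 ± 4.18 and puf-9 at 26.1 ± 1.83. No neighbours in that order overlapped between libraries. In L4, puf-8 led the 7 with 27.3 ± 0.891 FPKM, followed by puf-9 at 23.6 ± 0.741, puf-3 at 23.5 ± 0.184, puf-11 at 19.3 ± 0.787, puf-5 at 15.4 ± 2.06, puf-6 at 7.62 ± 0.47 and puf-7 at 7.10 ± 0.452. There the neighbours puf-9 and puf-3, and puf-6 and puf-7, overlapped. The highest and lowest members were 20.0-fold apart at day 10 and 3.84-fold apart in L4. Outside the 7, puf-12 stood at 115 ± 15.3 FPKM at day 10 and 86.1 ± 1.52 FPKM in L4, above each of the 7 in L4.

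Among all tested genes ranked by mean FPKM, puf-5 was number 211 at day 10 and number 6414 in L4. The same ranks were 379 and 4685 for puf-3, 506 and 5482 for puf-11, 928 and 9354 for puf-7, and 1275 and 9133 for puf-6. They were 1642 and 4131 for puf-8, and puf-9 went the other way, at 5261 at day 10 and 4654 in L4.

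The summed FPKM of the 7 genes was 1528, 1455 and 1213 in the day 10 replicates and 129, 122 and 121 in the L4 replicates. The mean was 11.3-fold higher at day 10. Of that sum, puf-5, puf-6 and puf-7 held 55.6% ± 1.17 at day 10 and 24.3% ± 1.34 in L4 (SD, n = 3 each). The share of puf-5 alone was 37.2% ± 1.62 at day 10 and 12.4% ± 1.26 in L4. The Pumilio-like puf-8 and puf-9 together held 8.79% ± 1.03 at day 10 and 41.1% ± 0.403 in L4. The share of puf-3 and puf-11 was 35.6% ± 0.252 at day 10 and 34.6% ± 1.02 in L4, with libraries that overlapped between the ages. That closeness held only for the FPKM of these 7 genes: over all 12 PUF genes the share of puf-3 and puf-11 was 30.5% ± 0.66 at day 10 and 16.9% ± 0.547 in L4, and by counts of the 7 it was 32.4% ± 0.221 at day 10 and 28.4% ± 0.913 in L4, with no overlap in either. Both alternatives were computed after the values were seen.

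**Figure D3:**
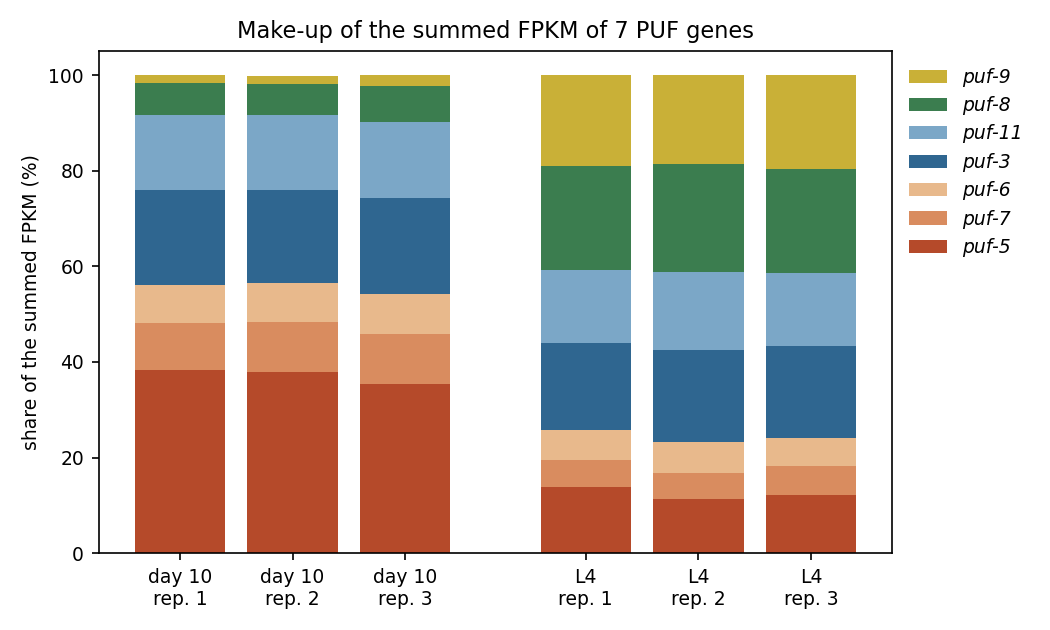
Share of the summed FPKM of 7 PUF genes held by each gene, in percent, in the 3 day 10 libraries (left) and the 3 L4 libraries (right). The puf-5 band takes 35.3 to 38.4% at day 10 and 11.4 to 13.8% in L4, while the puf-3 and puf-11 bands together take 33.6 to 35.8% of this 7-gene sum, though over all 12 PUF genes they held 30.5% at day 10 and 16.9% in L4.

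Some members have gene models that match closely in exon length and in part in intron length. Their sequences were not compared here. In the Ensembl annotation of WBcel235, puf-6 and puf-7 each have 4 coding exons of 105, 459, 653 and 238 bases, and both encode 485 residues. Their introns are 70, 671 and 1032 bases long in puf-6 and 70, 665 and 1032 in puf-7, although the genes lie on different chromosomes. The annotated pseudogene puf-10 (WBGene00004246, Y48G1BL.3; I, 212256 to 215491) has exons of 105, 459, 663 and 241 bases and introns of 70, 671 and 1027 bases. Of the 3 coding exons in puf-3 and puf-11, 2 are equal in length at 810 and 367 bases, and the first is 329 bases in puf-3 and 338 in puf-11. Their introns are 72 and 47 bases long in puf-3 and 137 and 47 in puf-11. The proteins have 502 and 505 residues. By contrast puf-5 encodes 553 residues in 5 exons, puf-8 encodes 535 in 6 and puf-9 encodes 703 in 9. The sources used here do not say how reads that match more than 1 gene were counted, so the split of counts within puf-6, puf-7 and puf-10, and within puf-3 and puf-11, is uncertain. Exons of puf-6 overlap those of 1 annotated pseudogene on the other strand by 3 bases, and those of the other 6 members share no base with an exon of another annotated gene. The whole of puf-3 lies within the span of afmd-2 on the other strand, which held at most 360 counts in a library.

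**Figure D4:**
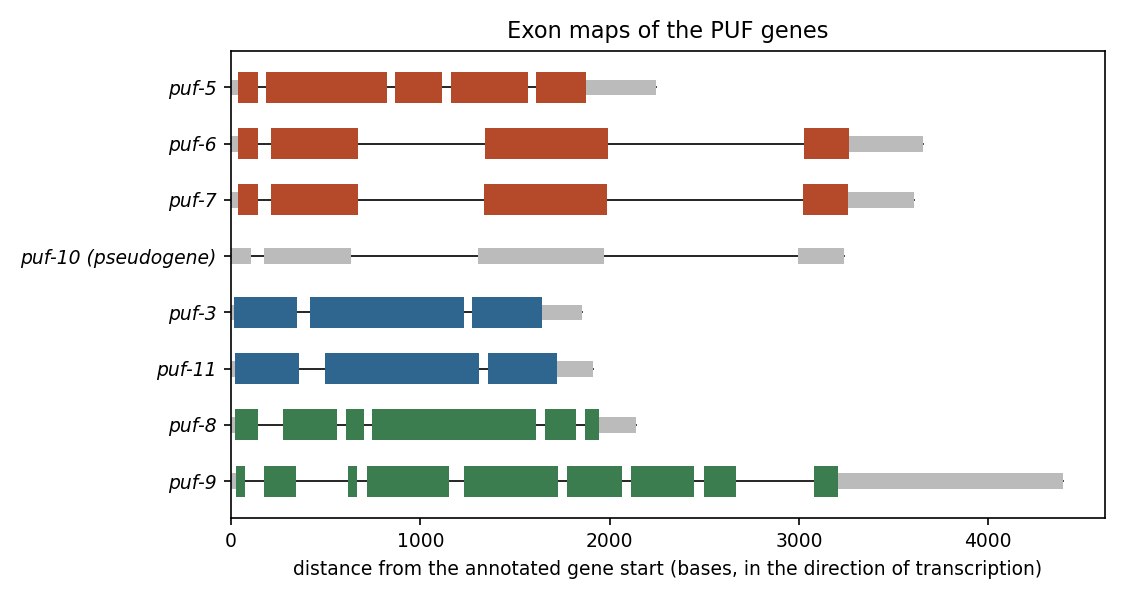
Exon maps of the 7 PUF genes and the pseudogene puf-10 from the WBcel235 annotation, in bases from the annotated start in the direction of transcription. Tall boxes are coding exons, low grey boxes untranslated or pseudogene exons, and lines introns. The maps of puf-6, puf-7 and puf-10 are almost the same. Those of puf-3 and puf-11 are close in their coding exons, with a first intron of 72 bases in puf-3 and 137 in puf-11.

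Counts of these related genes were compared as ratios within each library. The ratio of puf-6 to puf-7 counts was 0.821, 0.787 and 0.829 in the day 10 replicates and 1.11, 1.21 and 0.985 in the L4 replicates. It was lower at day 10, with no overlap, by a log2 difference of −0.43 ± 0.09 (SE; two-sided exact permutation p = 0.1, the smallest that 3 against 3 libraries allow; 0.125 adjusted over 5 ratios). The ratio of puf-3 to puf-11 was 1.27, 1.26 and 1.28 at day 10 and 1.22, 1.20 and 1.28 in L4. Its ages overlapped, with a log2 difference of 0.05 ± 0.03 (exact permutation p = 0.3; 0.3 adjusted). The ratio of puf-5 to puf-6 was 5.19, 4.95 and 4.42 at day 10 and 2.36, 1.90 and 2.18 in L4, a log2 difference of 1.18 ± 0.11 (exact permutation p = 0.1; 0.125 adjusted). The ratio of puf-5 to puf-7 differed by 0.75 ± 0.10 on the log2 scale (exact permutation p = 0.1; 0.125 adjusted). Ratios with puf-5 were chosen after the values were seen.

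Sums over the related genes do not depend on how shared reads were split within them, as long as every such read was counted for a single gene. Shared reads that were left out would be missing from the sums too, and the sources used here do not settle this. The summed level of puf-6 and puf-7 was 515, 517 and 411 CPM in the day 10 replicates and 28.7, 27.6 and 27.2 CPM in the L4 replicates, a log2 difference of 4.08 ± 0.11 (exact permutation p = 0.1). With puf-10 added, the difference was 3.84 ± 0.11. For puf-3 and puf-11 the sum was 963, 902 and 715 CPM at day 10 and 74.0, 76.8 and 72.1 CPM in L4, a difference of 3.51 ± 0.13 (exact permutation p = 0.1).

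Of the other 5 PUF genes, 4 were tested, and 3 (puf-10, fbf-1 and puf-12) were higher at day 10 by edgeR's test and 0 lower. Over all 15956 tested genes, 40.5% were called higher and 45% lower. With upper-quartile factors 1 of these 4 PUF genes, puf-10, was higher and 1, fbf-2, was lower. That scaling called 5301 of the 15956 tested genes higher and 8408 lower. The pseudogene puf-10 held 118, 121 and 94.5 CPM in the day 10 replicates and 11.2, 13.7 and 13.2 CPM in the L4 replicates (log2 fold change 3.12 ± 0.14; edgeR's adjusted p = 4.2e-08). The stem cell regulator fbf-1 stood at 61.1, 55.7 and 51.8 CPM at day 10 and at 35.2, 36.2 and 38.6 CPM in L4. Its log2 fold change was 0.62 ± 0.08 (edgeR's adjusted p = 9.4e-05, or 0.062 when scaled to the upper quartile). Its paralogue fbf-2 averaged 39.7 ± 3.58 CPM at day 10 and 40.4 ± 2.31 CPM in L4 (log2 fold change −0.02; edgeR's adjusted p = 0.8). For fbf-2 the value was −0.48 with upper-quartile factors (edgeR's adjusted p = 0.00066) and 0.14 with DESeq2's size factors (edgeR's adjusted p = 0.19), so no direction is given. The ratio of fbf-1 to fbf-2, also chosen after the values were seen, differed by 0.64 ± 0.07 on the log2 scale between the ages (exact permutation p = 0.1; 0.125 adjusted over the 5 ratios). The gene puf-12 averaged 288 ± 27.1 CPM at day 10 and 217 ± 1.94 CPM in L4 (log2 fold change 0.41; edgeR's adjusted p = 0.0006), with −0.04 under upper-quartile factors. The pseudogene puf-4 held at most 16 counts in a library and was not tested.

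**Figure D5:**
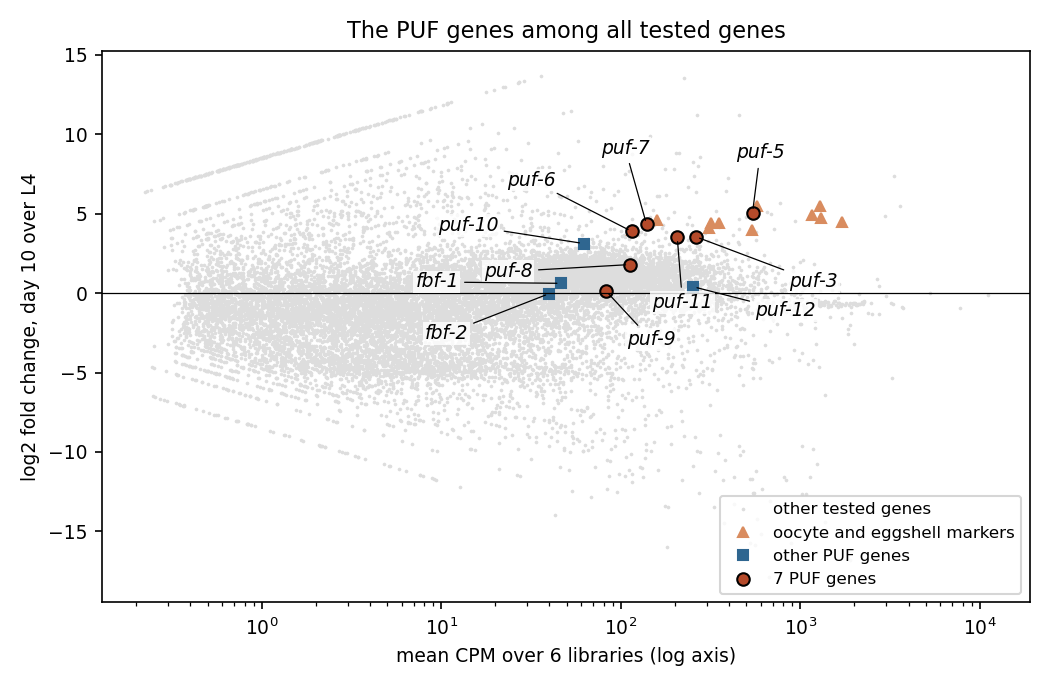
Log2 fold change, day 10 over L4, of each of 15956 tested genes against mean CPM over 6 libraries on a log axis. Of the PUF genes, puf-5 (5.07), puf-7 (4.32) and puf-6 (3.89) lie at or near the level of the 11 oocyte and eggshell markers, which range from 3.96 to 5.52, while puf-8 (1.8) and puf-9 (0.13) lie within the dense cloud.

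Markers of oocytes and of the eggshell rose steeply at day 10, as did puf-3, puf-5, puf-6, puf-7 and puf-11. All 11 listed markers were higher at day 10 by edgeR's test, as were 40.5% of all tested genes. Their log2 fold changes had a median of 4.48 and ran between 3.96 and 5.52. Their summed level was 11764 to 17008 CPM in day 10 libraries and 564 to 601 CPM in L4 libraries, and none was at 0 in either age. Within day 10, replicate 3 was lower than the mean of replicates 1 and 2 by 29.4% for the summed markers. The same library differed by −29.3% for puf-5, by −19.0% to −23.7% for puf-3, puf-6, puf-7 and puf-11, by −10.5% for puf-8 and by 5.58% for puf-9. In bulk RNA, more cells of a type and more RNA per cell cannot be told apart, and the part of oocyte number in these rises was not tested. Without day 10 replicate 3 the log2 fold change of puf-5 was 5.25.

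Markers of other germ cells, embryos and somatic tissues moved in both directions. The counts called below stand beside 40.5% of all tested genes called higher and 45% called lower. Of 9 general germ line markers, 8 were higher and 1, glh-1, lower, the median log2 fold change being 0.91, with summed levels of 2167 to 2533 CPM at day 10 and 1510 to 1525 CPM in L4. The 10 sperm markers were all lower, at 12.7 to 22 CPM at day 10 and 320.1 to 328 CPM in L4. Of 12 embryonic markers, 6 passed the filter on low counts, of which 5 were higher and 1 lower. The summed level of the 12 was 33.6 to 45.2 CPM at day 10 and 12.8 to 15.5 CPM in L4, and most of the L4 sum was elt-7, the marker that fell. Without elt-7, left out after its values were seen, the sum was 27.4 to 42 CPM at day 10 and 0.203 to 0.597 CPM in L4. The markers tbx-35, tbx-38, pes-10 and hlh-27 were at 0 in all L4 libraries. At day 10, tbx-38 and pes-10 averaged 15.3 and 9.69 CPM, while tbx-35 and hlh-27 held at most 3 counts in a library and were not tested. Beside puf-9, whose known roles are in epidermis and neurons, 3 of 6 seam cell markers were higher and 1 lower. The log2 fold changes were 5.73 for ceh-16, 3.40 for egl-18 and 0.71 for elt-6, and −3.46 for nhr-73, which fell. Those of rnt-1 (0.28) and bro-1 (−0.85) did not pass the test. With upper-quartile factors 2 seam cell markers were higher and 2 lower, beside 5301 higher and 8408 lower of the 15956 tested genes. The neuronal list had 2 of 10 markers higher and 8 lower, with summed levels of 334 to 367 CPM at day 10 and 340.3 to 357 CPM in L4. The largest part of that sum was snb-1, which rose, at 269 CPM at day 10 and 157 CPM in L4. The 6 muscle and 6 intestine markers were all lower, as were both markers of the gonadal sheath. The part of these tissues in the PUF levels was not tested.

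The mRNAs of known PUF partners were mostly higher at day 10. Of 11 listed partners, 9 were higher and 0 lower by edgeR's test, and the median log2 fold change was 1.24. Of all tested genes 40.5% were higher. Of the 9 general germ line markers 8 were higher, with a median of 0.91. With upper-quartile factors 8 of the 11 partners were higher and 3 lower, beside 5301 higher and 8408 lower of the 15956 tested genes. The Nanos homologue nos-2 rose by 5.17 ± 0.17 on the log2 scale to 128 ± 25.3 CPM at day 10, against 3.57 ± 0.0926 CPM in L4. Its relative nos-1 rose by 3.18 ± 0.14 on the same scale. The FBF cofactors of the stem cell niche, sygl-1 and lst-1, had log2 fold changes of 2.80 ± 0.11 and 2.09 ± 0.08, and nos-3 one of 1.24 ± 0.06. The cytoplasmic poly(A) polymerase subunits gld-3 and gld-2 rose by 2.77 ± 0.07 and 0.69 ± 0.05 on the log2 scale. The dynein light chain dlc-1 (−0.11) and the elongation factor eef-1A.1 (−0.10) did not pass the test.

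Of 20 genes of deadenylation, decapping and mRNA repression, 19 were higher and 0 lower, beside 40.5% of all tested genes higher. Their median was 1.28 on the log2 scale, beside 0.91 for the 9 general germ line markers. With upper-quartile factors 17 of the 20 were higher and 1 lower, beside 5301 higher and 8408 lower of the 15956 tested genes. The CCR4-NOT scaffold let-711 rose by 0.99 ± 0.05, and its deadenylases ccr-4 and ccf-1 by 1.49 ± 0.03 and 1.29 ± 0.02, all on the log2 scale. The DDX6 homologue cgh-1, a repressor helicase of germ cells and the most abundant of the list, averaged 1851 ± 314 CPM at day 10 and 525 ± 3.82 CPM in L4. The decapping activator patr-1 had the largest log2 fold change of the list, 2.43 ± 0.05. The nuclease parn-1 (−0.20) did not pass the test.

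Of 15 mRNAs reported as targets of PUF proteins, 14 were higher and 1 lower, beside 40.5% of all tested genes higher. Their median was 1.47 on the log2 scale, beside 0.91 for the 9 general germ line markers. The lists are not separate, as him-3 (0.91) is in both. With upper-quartile factors 13 of the 15 were higher and 1 lower, beside 5301 higher and 8408 lower of the 15956 tested genes. The Notch receptor glp-1, a target of PUF-5, PUF-6 and PUF-7 in oocytes, averaged 344 ± 46.2 CPM at day 10 and 74.2 ± 3.23 CPM in L4, a log2 fold change of 2.21 ± 0.12. The PUF-8 target pal-1 averaged 118 ± 12 CPM at day 10 and 15.8 ± 1.67 CPM in L4, a log2 fold change of 2.90 ± 0.12. The PUF-9 target hbl-1, a temporal factor of the epidermis, fell to 7.87 ± 0.218 CPM at day 10, against 14.7 ± 0.604 CPM in L4 (log2 fold change −0.91 ± 0.04). The FBF targets gld-1 and fem-3 rose by 1.68 ± 0.08 and 3.03 ± 0.08 on the log2 scale. Translation was not measured.

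All 13 listed RNA-binding regulators of oocytes were higher at day 10, beside 40.5% of all tested genes. Their log2 fold changes ran from 0.26 to 5.17, with a median of 3.33. With upper-quartile factors 12 of the 13 were higher and 1 lower, beside 5301 higher and 8408 lower of the 15956 tested genes. The zinc finger proteins oma-2 and oma-1, which act in oocyte maturation, rose by 5.17 ± 0.21 and 3.52 ± 0.11 on the log2 scale. The ubiquitin ligase lin-41, which holds oocytes in prophase, rose by 2.97 ± 0.13 on that scale. The wide range of this list held the steep rises of puf-5, puf-6, puf-7, puf-3 and puf-11. It also held puf-8 (1.8), while puf-9 (0.13) lay below it. The log2 fold changes of daz-1 (1.82 ± 0.09) and cpb-3 (1.78 ± 0.06), further germ line RNA-binding proteins, lay close to that of puf-8.

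The genes with the most similar profiles over the 6 libraries were sought by the root mean square difference of log2(CPM + 0.5), centred on each gene's mean, among 8504 named genes outside the family with a mean of at least 10 CPM. Nearest to puf-5 was oma-2, at a difference of 0.059, then C39D10.7 at 0.090. Nearest to puf-3 were the Wnt ligand mom-2 and Y75B12B.1, both at 0.053, and Y75B12B.1 (0.057) stood second to T05F1.2 (0.051) for puf-11. The distance between puf-3 and puf-11 themselves, 0.038, was smaller than from either to any of those genes, and that between puf-6 and puf-7 was 0.231. Nearest to puf-6 were trcs-1 at 0.062 and the eggshell chitin enzyme gna-2 at 0.077, and nearest to puf-7 were C05C10.5 at 0.078 and W05F2.3 at 0.081. For puf-8 they were the septin unc-59 at 0.023 and the kinetochore gene zwl-1 at 0.027, and for puf-9 H06I04.3 at 0.013 and M01E5.2 at 0.016. Profiles like that of puf-8 were common, with 1190 genes within 0.2, as for puf-9 with 1127. Fewer lay that near to the other members, with 17 for puf-5, 31 for puf-7, 41 for puf-6, 42 for puf-3 and 46 for puf-11.

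The members lie on 3 chromosomes, with puf-5, puf-6 and puf-8 on II, puf-3, puf-7 and puf-11 on IV, and puf-9 alone on X. Of the tested genes, 43.9% were higher at day 10 on II, 39.1% on IV and 25.8% on X. The median log2 fold changes were 0.04, −0.35 and −0.87 on II, IV and X, so puf-9 at 0.13 stood above the median of its chromosome.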

How the data were processed

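Trizol RNA of whole washed worms went into TruSeq libraries at 1 µg each, per the labels' protocols. The deposited read counts per gene come from a workflow naming CASAVA 1.8, HISAT2 and HTSeq, per the submitters' processing notes; no source used here names the build or how HTSeq was set. The deposited FPKM equal the counts divided by 1 length per gene and by the total of each library (relative difference at most 3.4e-09, 10788 genes). The authors' table of p-values, and of group means as a signal of scaled counts, came from a test not given in the sources used here.

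Symbols and coordinates came from Ensembl and RefSeq annotations of WBcel235, which need not be the authors' build; puf-4 and puf-10 were matched by identical coordinates. All 141 listed symbols were found. Counts were tested with edgeR 4.0.16 (R 4.3.3): TMM, default filter, robust quasi-likelihood, Benjamini-Hochberg over 15956 genes. SE come from log2(CPM + 0.5) within ages. In simulated counts for day 10 against L4 (15909 genes), 40% of 50 genes changed 1.5-fold and 94% of 50 changed 2-fold were recovered. The simulation changed 200 genes and gave all genes a common spread, whereas 85.4% of tested genes were called in the data. Its rates therefore need not hold for the data. The members, lists and tests were chosen with earlier results of these data known. Named genes were the PUF genes, the listed genes and the 2 nearest profiles of each member. Alternatives were other scalings, filters, fits and units, DESeq2 1.42.0, limma 3.58.1 on log2 FPKM, a replicate block, and each library left out. Same-numbered libraries did not deviate together (correlations 0.033, 0.06 and 0.001).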

Additional observations from a re-analysis of the deposited data

How the results depend on the processing

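Of the log2 fold changes of the 7 PUF genes, those of puf-3, puf-5, puf-6, puf-7, puf-8 and puf-11 kept their direction and passed the test under all 16 alternatives, at 3.10 to 3.72, 4.62 to 5.25, 3.43 to 4.05, 3.87 to 4.49, 1.35 to 1.97 and 3.05 to 3.67. That of puf-9 turned to −0.32 with upper-quartile factors, where 1 of the 7 was called lower, as were 8408 of the 15956 tested genes. For puf-9 the call was lost with library size alone (0.15), no filter (0.10), at least 1 CPM in 3 libraries (0.11), a fit that was not robust (0.13), the replicate block (0.13) and limma on log2(FPKM + 1) or log2(FPKM + 0.1) (0.14 each). Without 1 L4 library its log2 fold change was 0.11 to 0.13 (edgeR's adjusted p 0.089 to 0.17), and the call was lost without each of them. The pairing by replicate number, which the labels do not explain, changed no other PUF call. The log2 fold change of fbf-2 was −0.48 with upper-quartile factors (edgeR's adjusted p = 0.00066), where it became a call, turned to 0.14 with DESeq2's size factors and with DESeq2, and ranged from −0.08 to 0.05 without 1 library, above 0 without day 10 replicate 2 or 3 (0.05 and 0.02); that of puf-12 turned to −0.04 with upper-quartile factors. The share of puf-5 was 31.8% at day 10 and 6.10% in L4 over all 12 PUF genes, and 39.5% at day 10 by counts. Over all 12, the share of puf-3 and puf-11 was 30.5% at day 10 and 16.9% in L4. The cause of these shifts was not tested.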
